A study of Mus musculus with 8 samples.

Results

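Ba/F3 cells expressing FLT3/ITD were compared with Ba/F3 cells expressing wild type FLT3 after 4 h with Cxcl12, on 4 of the 8 arrays of the series. Ba/F3 is an established mouse pro-B cell line that needs IL3 to grow. FLT3 is a growth factor receptor with tyrosine kinase activity found on blood progenitors, and an internal tandem duplication (ITD) in it keeps the kinase active without its ligand. Every group had been maintained in RPMI1640 with 10% FBS and 0.1 ng/ml recombinant mouse IL3, then washed and kept for 4 h in medium with 0.5% BSA. The groups described here received 100 ng/ml recombinant murine Cxcl12 during those 4 h. They are wild type FLT3 with Cxcl12 (2 arrays) and FLT3/ITD with Cxcl12 (2 arrays, 1 of the ITD named N51 and 1 of the ITD named N78). The other 4 arrays are the same kinds of cells without Cxcl12. They share no array with the comparison and serve as its background. The labels do not say whether each line is a clone or a pool, nor whether the samples came from separate cultures, so p-values measure the spread between these samples alone.

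FLT3/ITD signals through kinase cascades and the transcription factor STAT5, whose known targets in blood cells include the kinase gene Pim1, the feedback inhibitor genes Cish and Socs1 and the survival gene Bcl2l1. Cxcl12 is a chemokine that binds the G protein-coupled receptor Cxcr4 and draws blood progenitors to the bone marrow, where integrins hold them. RGS proteins and kinases of the GRK family damp the signal of such receptors.

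N51 and a wild type array lay on slide 1, and N78 and the other wild type array on slide 2, so the ITD and the slide cannot be told apart. On both slides wild type FLT3 with Cxcl12 held position 3 and FLT3/ITD with Cxcl12 position 4, so position and group cannot be told apart either. A level is the log2 intensity of a probe minus the 75th percentile of its array, so 0 marks that percentile, and levels of different probes are not compared. A difference is FLT3/ITD minus wild type FLT3, both with Cxcl12, on the same log2 scale. A gene passed when its limma p, adjusted by Benjamini and Hochberg over all genes tested, was under 0.05. The 75th percentile was an intensity of 1085 and 1109 on the slide 1 arrays with Cxcl12 and of 488 and 600.0 on those of slide 2, and 49.2 to 52.5% of probes were well above background on these 4 arrays.

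The mouse Flt3 probe was well above background on 2 of the 4 arrays, and its difference was -0.28 on slide 1 and 0.54 on slide 2. Whether it reads the introduced FLT3 is not given in the sources used here, so these values are no test of the labels. The list of 17 pro-B cell markers also holds genes not confined to such cells, Ptprc and the IL3 receptor genes Il3ra, Csf2rb and Csf2rb2. Of the 17, 9 or 10 were well above background on each of the 4 arrays. Cd79a, Cd79b, Vpreb1 and Dntt were so on all 4. Probes of the defining genes Pax5, Ebf1, Rag1, Rag2 and Il7r were not well above background on any of the 4. No member of this list among the 10 that could be tested passed, and their median difference was 0.01.

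FLT3/ITD cells with Cxcl12 had more mRNA of the serpin gene Serpina3g, the kinase gene Pim1, the transcription inhibitor gene Id1 and the thrombin receptor gene F2r. They had less mRNA of mast cell proteases, cathepsin G, the dectin-1 gene Clec7a and the integrin gene Itga4. Of 13845 genes and unnamed features tested, 116 passed (0.838%), 68 higher (0.491%) and 48 lower (0.347%). The median difference of those higher was 2.35 and of those lower -2.35, against 0.04 for all genes tested. The smallest difference that passed was 0.897 in size, and the standard error (SE) of those that passed lay between 0.159 and 0.791. All 116 differed in the same direction on both slides, which the test favours, against 62.3% of all genes tested. The levels of the groups did not overlap for 104 of the 116, and for 24.0% of all genes tested.

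The count of 116 rests on pairing the arrays by slide and on few arrays. With no slide in the fit 0 genes passed in limma, and 370 had an unadjusted p under 0.05, against 2513 with it. Without the wild type array of slide 2 the count was 17, and without that of slide 1 it was 24. It was 39 without N51, 221 without N78 and 240 when the 4 arrays with Cxcl12 were fitted alone. With normexp background correction 197 genes passed, of which 52 were among the 116, and 104 of the 116 kept their direction. Where it ended the call of a named gene, the value under it is given with that gene. For named genes that lost their call without 1 of the 4 arrays, 4 adjusted p-values in a row are those without the wild type array of slide 1, without that of slide 2, without N51 and without N78. There were 9 genes that passed without any 1 of the 4 arrays, among them Serpina3g, Mrvi1, Id1, F2rl2, Dnah11, Clec7a, Aldh1a7 and Mcpt8.

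**Figure D1:**
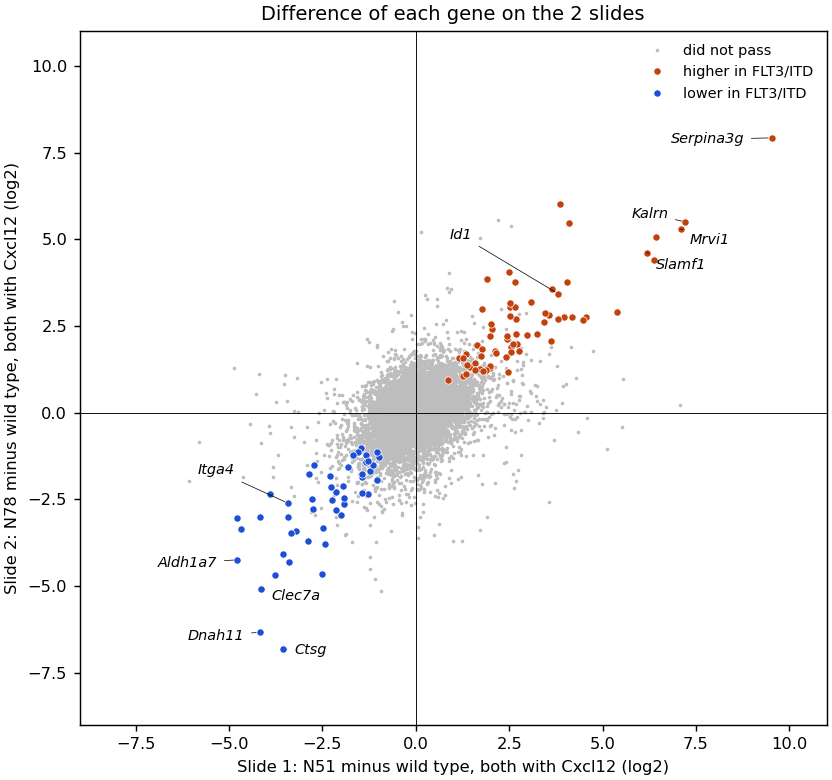
Difference between FLT3/ITD and wild type FLT3, both with Cxcl12, on slide 1 (N51, horizontal, log2) and slide 2 (N78, vertical, log2) for the 13845 genes tested, 1 point a gene. The 68 genes that passed as higher lie in the upper right and the 48 that passed as lower in the lower left, while grey points far along 1 axis are genes that differed on a single slide.

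Of the genes that rose, Serpina3g had the largest difference, and its neighbour Serpina3f rose too. The stretches of 250 bases before their starts (RefSeq, GRCm38.p6) are shown because both hold the motif TTCNNNGAA, a palindrome that STAT proteins bind, in capitals. The stretch before the start of Ctsg, the cathepsin G gene, which fell, also holds it.
Serpina3g, chr12:104235897-104236146, plus strand: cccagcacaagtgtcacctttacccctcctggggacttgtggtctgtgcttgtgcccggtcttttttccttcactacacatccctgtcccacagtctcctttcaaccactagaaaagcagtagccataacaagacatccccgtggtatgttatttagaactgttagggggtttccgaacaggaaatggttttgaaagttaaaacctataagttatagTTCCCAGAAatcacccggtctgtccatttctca
Serpina3f, chr12:104214294-104214543, plus strand: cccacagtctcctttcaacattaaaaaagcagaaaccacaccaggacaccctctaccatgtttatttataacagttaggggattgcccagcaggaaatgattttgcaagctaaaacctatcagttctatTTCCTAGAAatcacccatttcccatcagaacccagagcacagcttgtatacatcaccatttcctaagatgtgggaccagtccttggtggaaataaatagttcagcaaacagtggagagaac
Ctsg, chr14:56102575-56102824, minus strand: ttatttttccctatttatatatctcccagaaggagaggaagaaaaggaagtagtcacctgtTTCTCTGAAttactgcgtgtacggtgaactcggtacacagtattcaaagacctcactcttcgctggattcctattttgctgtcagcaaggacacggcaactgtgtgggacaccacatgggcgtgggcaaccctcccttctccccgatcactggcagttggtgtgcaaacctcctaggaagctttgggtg
The motif begins at -33 from the start of Serpina3g, at -121 from that of Serpina3f and at -189 from that of Ctsg. Lined up on the motif with no gaps, 48 of 56 bases were the same in both serpin stretches. The 56 are the 40 bases before the motif and 16 from its start. They include the motif itself, whose fixed letters had to match. The motif, which reads the same on both strands, was in 7.02% of all 32851 promoters of this length. Counted by gene, it was found for 2 of 47 matched genes that rose (4.26%), for 2 of 34 that fell (5.88%) and for 7.11% of the 9462 genes tested that matched. The other motif searched, GATAA on either strand, which GATA factors bind, was found for 27.7% of the genes that rose, 32.4% of those that fell and 18.0% of those tested. These matches describe the letters alone.

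The probes that read Pim1 and the protease gene Mcpt8 are shown because the STAT5 and mast cell results turn on these genes. Both are 60-base probes from coding sequence, as the deposited files give them, with positions in mm9. The file's span for Mcpt8 is longer than the probe.
Pim1, chr17:29630740-29630799, plus strand: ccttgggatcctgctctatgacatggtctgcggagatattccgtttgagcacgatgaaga
Mcpt8, chr14:56702300-56702674, minus strand: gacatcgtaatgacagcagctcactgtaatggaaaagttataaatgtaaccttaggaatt

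Among STAT5 targets, genes for a kinase, a survival factor and a transcription inhibitor rose, and none of the 4 feedback inhibitor genes tested passed. Pim1, a kinase that supports growth and survival, had levels of -3.59 in wild type and -0.34 in N51 on slide 1 and of -1.66 and 0.61 on slide 2. Both FLT3/ITD arrays were above both wild type arrays. The difference was 2.76 (SE 0.38, n = 2 arrays a side, limma adjusted p = 0.015). Id1, which blocks basic helix-loop-helix transcription factors, had 0.53 and 4.34 on slide 1 and -1.49 and 1.94 on slide 2. It rose by 3.62 (SE 0.29, adjusted p = 0.00217), and a second Id1 probe differed by 3.80 and 3.30 on the slides. Bcl2l1, the gene of the survival protein BCL-XL, had -0.86 and 1.60 on slide 1 and -0.20 and 0.97 on slide 2, and rose by 1.81 (SE 0.31, adjusted p = 0.0407). A second Bcl2l1 probe differed by 2.52 and 2.50, whereas a further one, well above background on 2 of the 4 arrays, differed by -2.01 on slide 1 and had no value on slide 2.

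Cish, a cytokine-induced inhibitor of the JAK-STAT pathway, had 0.93 in wild type and 4.00 in N51 on slide 1, and -0.41 and 1.1 on slide 2. Its difference of 2.29 (SE 0.49, adjusted p = 0.0749) did not pass. Socs1, of the same family, had -2.35 and 1.67 on slide 1 but -1.90 and -1.06 on slide 2, a difference of 2.43 (SE 0.66, adjusted p = 0.117). The gap of N51 from wild type was thus 4.02 for Socs1 and that of N78 was 0.84. Socs2 and Socs3 differed by 0.18 and 0.61. Of 14 STAT5 targets tested 3 rose and 0 fell, against 0.491% and 0.347% of all genes. Of them 12 had a difference above 0 (against 53.8% of all genes), and the median was 0.62 (0.92 on slide 1 and 0.24 on slide 2). It was 0.28 without the wild type array of slide 1 and 0.90 without that of slide 2. Among those that did not pass, the cyclin gene Ccnd2 differed by 0.72 and the kinase gene Pim2 by 0.62. Mycn, a MYC family gene outside that list, rose by 1.43 (SE 0.25, adjusted p = 0.0427), and a second Mycn probe differed by 0.58 and 1.65 on the slides. Id1 kept passing without any 1 of the 4 arrays. With normexp background correction Id1 differed by 2.70 and Pim1 by 1.49, both passing, and Mycn by 1.79, which did not pass. Leaving out each array in turn gave adjusted p of 0.16, 0.0878, 0.126 and 0.0226 for Pim1, and 0.281, 0.129, 0.185 and 0.0159 for Bcl2l1. They were 0.134, 0.408, 0.197 and 0.065 for Mycn.

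**Figure D2:**
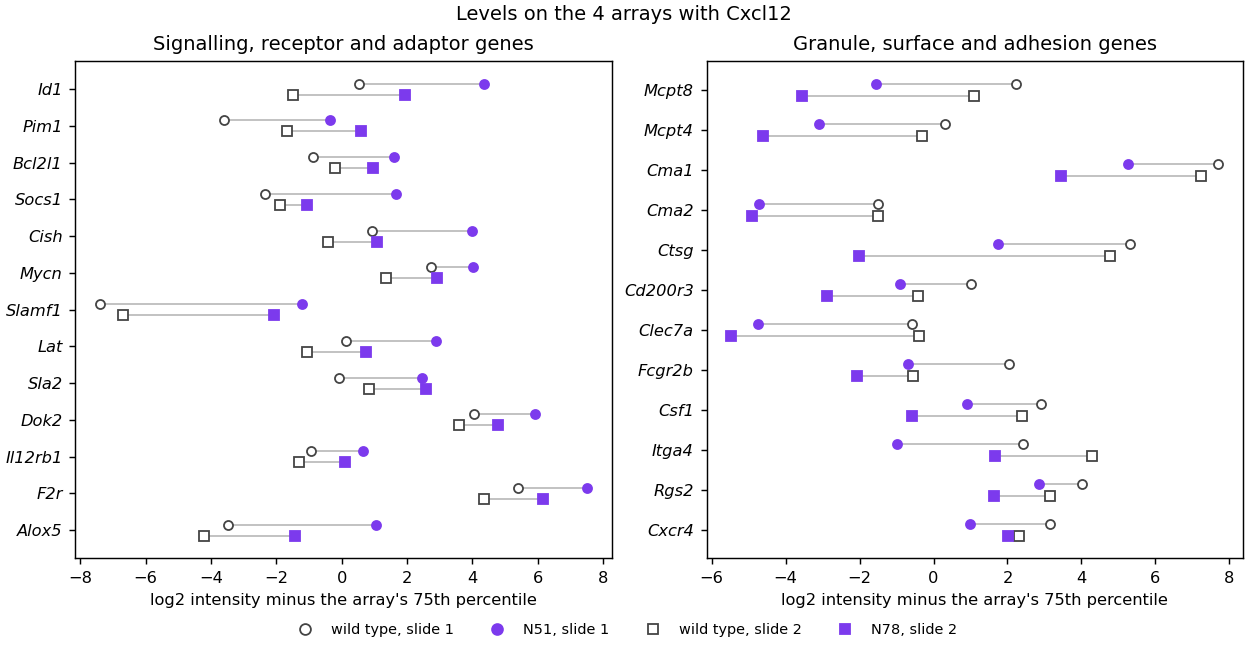
Level (log2 intensity minus the array's 75th percentile, horizontal) of 25 genes on the 4 arrays with Cxcl12, with circles for slide 1 and squares for slide 2, open for wild type FLT3 and filled for FLT3/ITD. Lines join the arrays of a slide. The signalling, receptor and adaptor genes lie to the right in FLT3/ITD, the granule, surface and adhesion genes to the left, and Cxcr4 and Socs1 show a wide gap with N51 and a narrow one with N78.

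Single receptor and adaptor genes of immune cells passed in both directions, and those that rose come first. They are no list that was tested. Slamf1, a receptor of lymphocytes, was not well above background on either wild type array and had -1.22 in N51 and -2.08 in N78. Its mRNA was at least 9.61-fold more abundant with the scanner software's background subtraction (adjusted p = 0.00469), but its difference was 0.89 with normexp and did not pass. Such a bound, which holds for that subtraction alone, sets the mean of the brighter group against the lowest signal well above background on the dim arrays. Lat, an adaptor below the T cell receptor, had 0.13 and 2.90 on slide 1 and -1.05 and 0.73 on slide 2, and rose by 2.28 (SE 0.38, adjusted p = 0.0357). Among 7 T and NK cell markers tested Lat alone passed, while the T cell receptor chain gene Cd3e differed by 0.22 and Cd3d by 0.57. Trgv2, a T cell receptor gamma gene segment, rose by 5.39 (SE 0.79, adjusted p = 0.0191), from -1.25 to 5.13 on slide 1 and from -1.60 to 2.80 on slide 2, and by 4.29 with normexp. A second Trgv2 probe, well above background on 1 of the 4 arrays, differed by 4.198 on slide 1 but by only 0.277 on slide 2. Of 16 cytokine receptor genes tested 1 rose and 0 fell, 11 lay below 0 (against 46.2% of all genes), and the median was -0.25. At an unadjusted limma p under 0.05, 4 of the 16 were higher and 3 lower, against 10.6% and 7.51% of all genes. Members thus lay on both sides, and the list as a whole had no clear direction.

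Of the further genes that rose, all but Ptprcap and Lilrb4a were chosen after their values were seen. Sla2 and Dok2, adaptors that damp kinase signals, rose by 2.15 (SE 0.25) and 1.54 (SE 0.23), and a second Sla2 probe differed by 1.37 and 0.23 on the slides. With the mean of probes Sla2 differed by 1.48 and did not pass. Ptprcap, a partner of the phosphatase CD45, rose by 3.28 (SE 0.45), and here N78 was above N51, at 3.60 against 0.93. Lilrb4a, an inhibitory receptor of myeloid cells, rose by 3.36 (SE 0.42). The cytokine receptor gene Il12rb1 rose by 1.51 (SE 0.22), the cytokine subunit gene Ebi3 by 2.33 (SE 0.24) and the TNF family ligand gene Tnfsf14 by 2.01 (SE 0.28). The thrombin receptor gene F2r had 5.40 and 7.52 on slide 1 and 4.37 and 6.15 on slide 2, and rose by 1.95 (SE 0.17, adjusted p = 0.0026). Its relative F2rl2 rose by 2.70 (SE 0.25, adjusted p = 0.0026), by 2.68 with N51 and 2.71 with N78. Of the genes named in these 2 paragraphs, F2rl2 alone passed without each of the 4 arrays. With normexp F2r differed by 2.76 and passed, while F2rl2 at 0.96, Lilrb4a at 1.15, Il12rb1 at 0.89 and Dok2 at 2.26 did not. When the wild type array of slide 1 was left out, Ptprcap still passed and the other 10 genes did not (adjusted p 0.0542 to 0.23). With the wild type array of slide 2 left out, F2r still passed and the other 10 genes did not (adjusted p 0.0503 to 0.276). When N51 was left out, Ptprcap, Ebi3 and F2r still passed and the other 8 genes did not (adjusted p 0.0502 to 0.154). When N78 was left out, Ptprcap did not pass (adjusted p = 0.0501).

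Other large rises were in genes of varied function. Mrvi1, which anchors cGMP-dependent kinase signalling, had -2.83 and 4.26 on slide 1 and -2.93 and 2.36 on slide 2, and rose by 6.19 (SE 0.38, adjusted p = 0.000876). Kalrn, a guanine nucleotide exchange factor of small GTPases, was not well above background in wild type cells and was at least 22.0-fold higher (adjusted p = 0.00513), while 4 further Kalrn probes were not well above background on any of the 4 arrays. Mylk, the myosin light chain kinase gene, rose by 4.14 (SE 0.58), with 1 of the 2 wild type arrays well above background. Pglyrp2, a peptidoglycan-degrading enzyme gene, had levels at least 9.9-fold higher (adjusted p = 0.00574), the betaine and GABA transporter gene Slc6a12 at least 5.17-fold and Slc30a2, which carries zinc, at least 2.94-fold. A second Pglyrp2 probe, well above background on 2 of the 4 arrays, differed by only 0.41 on slide 1 and 0.65 on slide 2. Alox5, which makes leukotrienes, rose by 3.66 (SE 0.50, adjusted p = 0.0146), and 2 further probes of it differed by 3.45 and 3.65. It was the only gene of 9 for eicosanoid and histamine synthesis to pass, and the histamine enzyme gene Hdc differed by -1.31 (adjusted p = 0.311). With normexp background correction Slc6a12 and Slc30a2 had differences of -0.02 and -0.37, Pglyrp2 of 0.63, Kalrn of 1.73 and Mylk of 1.15, and none of these passed. Mrvi1 at 4.56 and Alox5 at 1.51 did. When the wild type array of slide 1 was left out, none of Kalrn, Mylk, Pglyrp2, Slc6a12, Slc30a2 and Alox5 passed (adjusted p 0.0756 to 0.21). With the wild type array of slide 2 left out, Kalrn and Mylk still passed and the other 4 genes did not (adjusted p 0.0546 to 0.129). When N51 was left out, none of Kalrn, Mylk, Pglyrp2, Slc6a12, Slc30a2 and Alox5 passed (adjusted p 0.0576 to 0.173).

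Serpins are protease inhibitors, and 3 of their genes rose. Serpina3g was not well above background in wild type cells with Cxcl12 and reached 1.97 in N51 and 2.0 in N78. It was at least 119-fold higher (adjusted p = 0.00217), and its difference was 4.18 with normexp background correction and passed. Serpina3f was at least 2.39-fold higher (adjusted p = 0.0176), at -3.71 in N51 and -3.60 in N78, and had a difference of -0.57 with normexp. A second Serpina3f probe differed by 3.03 and 3.04 on the slides. Serpinb6b, well above background on 1 of the wild type arrays, rose by 2.66 (SE 0.37, adjusted p = 0.015), but differed by 0.09 with normexp. Its close relative Serpinb6a differed by -1.06 and Serpinb1a by -1.17, and neither passed. Of 8 serpins tested 3 rose and 0 fell (against 0.491% and 0.347% of all genes), with a median of 0.49. The 3 belong to families of similar genes, and probes of such families may take signal from each other, which was not tested. Without single arrays the adjusted p was 0.158, 0.146, 0.166 and 0.0326 for Serpina3f, and 0.11, 0.17, 0.103 and 0.0475 for Serpinb6b.

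Of the 7 monocyte and macrophage markers tested, both lysozyme genes rose and 1 other gene fell. Lyz2, the lysozyme of macrophages, had -3.48 and -0.82 on slide 1 and -2.91 and 0.14 on slide 2, and rose by 2.86 (SE 0.30, adjusted p = 0.00391), though with normexp background correction it differed by 1.19 and did not pass. Lyz1, its near copy, was at least 2.75-fold higher (adjusted p = 0.0428), but had -0.68 with normexp. Clec7a, which encodes the beta-glucan receptor dectin-1 of macrophages, fell by 4.62 (SE 0.39, adjusted p = 0.00252), from -0.59 to -4.75 on slide 1 and from -0.39 to -5.48 on slide 2. Its probe was not well above background in N78, so the size is not exact, and it was -2.87 with normexp and passed. Of the other 4 of 7 monocyte and macrophage markers tested, Cd14 differed by -1.0, Adgre1 by -0.75, Cd68 by -0.10 and Mpeg1 by -2.16, and none passed. The adjusted p without each array was 0.0406, 0.0682, 0.0328 and 0.018 for Lyz2, and 0.0574, 0.296, 0.1 and 0.104 for Lyz1.

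Mast cell protease genes were lower in FLT3/ITD cells with Cxcl12, while the high-affinity IgE receptor genes and mast cell transcription factor genes did not pass. Mcpt8, a protease of basophils, had 2.23 and -1.55 on slide 1 and 1.1 and -3.57 on slide 2. Both FLT3/ITD arrays were below both wild type arrays, and it fell by 4.22 (SE 0.38, adjusted p = 0.0026). The chymase genes Mcpt4, Cma1 and Cma2 fell by 3.85 (SE 0.38), 3.12 (SE 0.34) and 3.31 (SE 0.40). Mcpt4 and Cma2 were not well above background in N78, so their sizes are not exact. With normexp background correction Mcpt8 differed by -3.10 and Mcpt4 by -2.76, both passing, and Cma1 by -2.30 and Cma2 by -2.40, which did not pass. Cma1 went from 7.70 to 5.26 with N51 and from 7.24 to 3.45 with N78. Cd200r3, a receptor of mast cells and basophils, fell by 2.19 (SE 0.26, adjusted p = 0.00718). Of 11 mast cell and basophil markers tested 5 fell and 0 rose, against 0.347% and 0.491% of all genes. Their median was -1.31 (-1.93 on slide 1 and -1.63 on slide 2), against 0.04 for all genes. The IgE receptor genes Fcer1a and Ms4a2 differed by -0.24 and -0.53, the transcription factor genes Gata2 and Mitf by -0.30 and 0.31, and the granule protease gene Cpa3 by -1.0, none of which passed. Probes of Kit and Tpsb2 were not well above background on any of the 4 arrays. The list had 13 and 10 of 16 markers well above background on the wild type arrays of slides 1 and 2, 9 on N51 and 8 on N78. In bulk RNA fewer cells of a type and less RNA per cell cannot be told apart.

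The lowered protease genes are neighbours. In mm9 the probes of Cma1, Cma2, Mcpt4, Mcpt8 and Ctsg lie within 158 kb of chromosome 14, from Cma1 at chr14:56560454-56560513 to Ctsg at chr14:56718795-56718854. Ctsg, cathepsin G of neutrophil and mast cell granules, went from 5.30 to 1.75 on slide 1 and from 4.78 to -2.03 on slide 2, and fell by 5.18 (SE 0.68, adjusted p = 0.0117), or by 4.12 with normexp. Of 17 genes tested within 400 kb of the Mcpt8 probe these 5 fell and 0 rose, against 0.347% and 0.491% of all genes. Next to them, Khnyn differed by -1.04 (adjusted p = 0.138) on one side, and on the other the granzyme gene Gzmb by -0.84, at 1.71 with N51 and -3.38 with N78. When the wild type array of slide 1 was left out, Cma2 and Cd200r3 did not pass (adjusted p 0.067 to 0.0807). With the wild type array of slide 2 left out, none of Ctsg, Cma1, Mcpt4, Cma2 and Cd200r3 passed (adjusted p 0.0546 to 0.133). When N51 was left out, Cma2 did not pass (adjusted p = 0.061). The proteases are similar in sequence, and signal shared between their probes was not tested. Mcpt8 passed without any 1 of the 4 arrays.

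**Figure D3:**
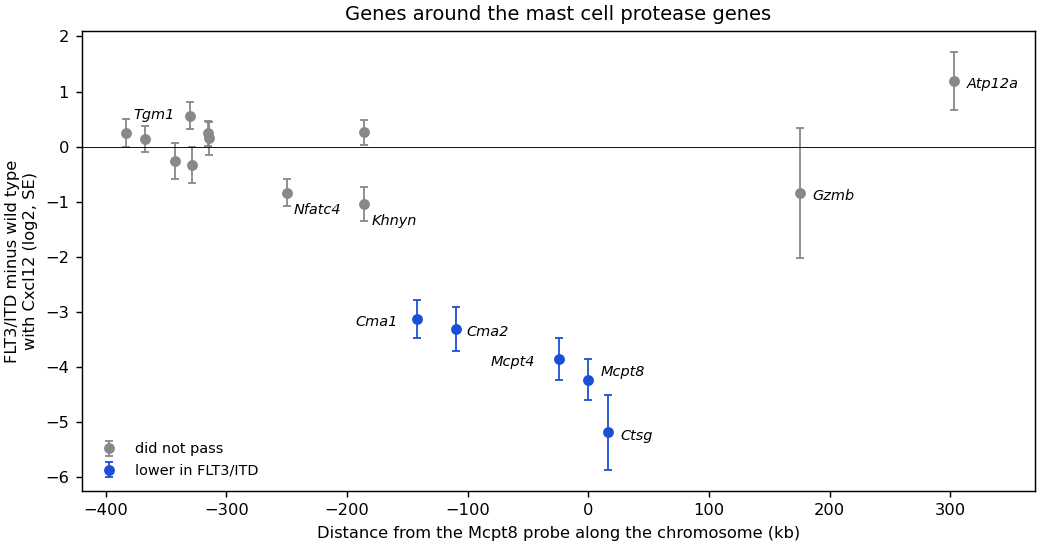
Difference between FLT3/ITD and wild type FLT3 with Cxcl12 (log2, bars are the SE from limma, n = 2 arrays a side) for the 17 genes tested within 400 kb of the Mcpt8 probe, against the distance from it in kb. The 5 genes that fell lie side by side between -3.12 and -5.18, and the genes beyond them lie between -1.04 and 1.19.

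Neighbouring pairs were common among the genes that passed. A called neighbour within 200 kb was found for 28 of the 116 (24.1%) and for 551 of 13382 genes that did not pass (4.12%). Of the 23 such pairs, 22 moved in the same direction. Among those that rose were Serpina3f with Serpina3g, Lyz1 with Lyz2, F2r with F2rl2, Tmem176a with Tmem176b, C3 with Tnfsf14, and Id1 with Bcl2l1. Among those that fell were Aldh1a1 with Aldh1a7, and Clec7a with Olr1. All pairs among Cma1, Cma2, Mcpt4, Mcpt8 and Ctsg fell and are counted singly. So are those among Itga4 and the unnamed features AK030647 and AK040074. The pairs thus do not each stand for a separate place. Tmem176a differed by 0.72 with normexp and did not pass. Several pairs are copies of one gene and some unnamed features may be parts of a named gene, so they are not independent. These pairs were picked out after their values were seen.

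Among eosinophil genes Ear6 fell, and some granule genes were far below wild type on slide 1 and less so, or not, on slide 2. Ear6, an eosinophil ribonuclease gene, had 3.14 and -1.64 on slide 1 and -2.77 and -5.81 on slide 2, and fell by 3.91 (SE 0.69, adjusted p = 0.0432), a size that is not exact because the probe was not well above background in N78. Prg2, the eosinophil major basic protein gene, had 5.80 in wild type and 0.00 in N51, but 0.02 and -0.82 on slide 2, a difference of -3.33 that did not pass (SE 1.1, adjusted p = 0.169). Prg3 had -0.15 in wild type and -6.24 in N51, and -4.49 and -6.45 on slide 2. Its difference of -4.02 did not pass (SE 1.1, limma adjusted p = 0.13). The Prg3 probe was well above background on the wild type array of slide 1 alone, so that size is not exact. Epx and Mpo, the peroxidase genes of eosinophils and neutrophils, were lower with N51 by 4.29 and 4.21, and differed by 0.54 and 1.1 on slide 2. The other neutrophil genes tested did not share this, with Prtn3 at 0.40 and 0.48 on the slides, S100a9 at -0.12 and 2.83, and Ctsg lower on both. Of 4 eosinophil markers tested 1 fell and 0 rose (against 0.347% and 0.491% of all genes), with a median of -3.62. Of 8 on the array 6 and 3 were well above background in wild type cells on slides 1 and 2, 3 in N51 and 2 in N78. Ear6, Prg2, Prg3, Epx and Mpo were all higher in the wild type array of slide 1 than in that of slide 2. A second Ear6 probe differed by -4.67 and -1.92. Leaving out each array in turn gave adjusted p of 0.211, 0.0339, 0.173 and 0.0924 for Ear6.

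Other surface, lysosomal and enzyme genes fell. Dnah11, an axonemal dynein gene, fell by 5.26 (SE 0.54, adjusted p = 0.00374), a size that is not exact because it was not well above background in N78. Csf1, the macrophage growth factor gene and the only one of 14 cytokine and chemokine genes tested to pass, fell by 2.48 (SE 0.26, adjusted p = 0.00374), from 2.90 to 0.90 on slide 1 and from 2.38 to -0.57 on slide 2. Olr1, a scavenger receptor gene of the Clec7a neighbourhood, fell by 3.58 (SE 0.58, adjusted p = 0.0286). Olr1, Aldh1a1 and Lat2 were each well above background on 1 FLT3/ITD array, so their sizes are not exact. The aldehyde dehydrogenase genes Aldh1a1 and Aldh1a7 were lower, the former by 4.01 (SE 0.40) and the latter, which passed without any 1 of the 4 arrays as did Dnah11, at least 5.24-fold, with neither FLT3/ITD array well above background for Aldh1a7. The lysosomal lipase gene Lipa fell by 2.63 (SE 0.25, adjusted p = 0.00297), and the lysosomal sulfatase gene Arsb by 2.22 (SE 0.27). Fcgr2b, the inhibitory Fc receptor gene, fell by 2.12 (SE 0.34, adjusted p = 0.0272), and 2 further probes of it differed by -2.08 and -2.28. Lat2, an adaptor of mast cells and B cells related to Lat, fell by 2.20 (SE 0.32, adjusted p = 0.0176), the opposite direction to Lat, while a second Lat2 probe differed by -2.36 on slide 1 and -0.06 on slide 2. Lipa, Arsb, Fcgr2b and Lat2 were chosen after their values were seen. With normexp background correction Aldh1a7 differed by -2.40 and did not pass, while Dnah11 at -3.44, Aldh1a1 at -2.18, Olr1 at -2.51, Lipa at -1.85 and Csf1 at -1.68 did. With probes well above background on all 4 arrays Lat2 differed by -1.21 and did not pass, and with the mean of probes Lipa differed by -3.27. When the wild type array of slide 1 was left out, Csf1 and Lipa still passed and the other 5 genes did not (adjusted p 0.0574 to 0.215). With the wild type array of slide 2 left out, Fcgr2b still passed and the other 6 genes did not (adjusted p 0.0503 to 0.257). When N51 was left out, Arsb, Fcgr2b and Lat2 did not pass (adjusted p 0.0608 to 0.175). When N78 was left out, Lat2 did not pass (adjusted p = 0.05).

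An integrin gene fell. Itga4, the alpha chain of the integrin VLA-4, had 2.42 and -1.0 on slide 1 and 4.28 and 1.67 on slide 2. It fell by 3.02 (SE 0.40, adjusted p = 0.0122), and 4 further probes of it differed by -2.28 to -3.06. The difference was -2.13 with normexp and passed. Itgb1, the beta chain that pairs with it, differed by 0.05. Of 22 integrins and adhesion molecules tested 1 rose and 1 fell, and the median was 0.04, equal to that of all genes. Itga6 differed by 1.29, Itgal by 0.95 and Itga5 by -0.95, none of which passed. Without single arrays the adjusted p was 0.11, 0.146, 0.0722 and 0.0072 for Itga4.

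Rgs2 alone passed among the genes of the Cxcl12 signal. Cxcr4 had 3.15 and 1.0 on slide 1 and 2.31 and 2.02 on slide 2, a difference of -1.22 that did not pass (SE 0.40, adjusted p = 0.168). Both FLT3/ITD arrays were below both wild type arrays, by 2.15 with N51 and 0.29 with N78, and a second probe differed by -2.46 and 0.16. Probes of Cxcl12 and of Ackr3, which also binds Cxcl12, were not well above background on any of the 4 arrays. Rgs2, which damps G protein signals, had 4.01 and 2.85 on slide 1 and 3.14 and 1.63 on slide 2, and fell by 1.33 (SE 0.20, adjusted p = 0.0222). A second Rgs2 probe, well above background on 1 of the 4 arrays, differed by -0.93 and 0.37. The receptor kinase gene Grk3 differed by -1.12 (adjusted p = 0.0737), the G protein genes Gnai2 by -0.69 and Gng2 by 1.21, and Rhoa by -0.62. Of 31 genes of CXCR4 signalling and RGS proteins tested 1 fell and 0 rose, 20 had a difference below 0 (against 46.2% of all genes), and the median was -0.23, against -0.05 without Cxcl12. Rgs2 differed by -0.60 with normexp background correction and did not pass. It had an adjusted p of 0.0615 to 0.294 when any 1 of the 4 arrays was left out.

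Feedback genes of the MAP kinase pathway and the named regulators of growth and survival mostly did not pass. Spry2, which damps receptor tyrosine kinase signals, fell by 1.34 (SE 0.24, adjusted p = 0.0463), from 0.45 to -1.1 and from 1.37 to 0.24. A second Spry2 probe, well above background on all 4 arrays, went the other way, by 0.58 and 1.17, so the direction of this gene is uncertain. Its difference was -0.23 with the mean of probes and -0.86 with normexp, and neither passed. Of 9 MAP kinase feedback genes tested Spry2 alone passed, 5 lay above 0 and 4 below, and the median was 0.32. At an unadjusted limma p under 0.05, 3 were higher (33.3%, against 10.6% of all genes) and 1 lower (11.1%, against 7.51%). Dusp4 differed by 0.98, Dusp7 by 0.67 and Dusp6 by -0.22. The survivin gene Birc5 differed by 0.14 (SE 0.22), Runx1 by -0.17 (SE 0.24), Cdkn1a by 0.34 (SE 0.22) and the apoptosis gene Bax by 1.08 (SE 0.24). Runx2 differed by -1.82 and Myb by -0.91, with adjusted p of 0.0771 and 0.0903. A further Myb probe, well above background on all 4 arrays, differed by -0.68 on slide 1 and 1.31 on slide 2. The remaining Myb probes lay below 0 on both slides. Of 15 BCL2 and IAP family genes tested Bcl2l1 alone passed. Among NF-kB genes, Relb, a subunit of that factor, rose by 1.94 (SE 0.24, adjusted p = 0.00789), the only one of 17 to pass, with a list median of 0.57, and differed by 1.29 with normexp and passed. Nfkbiz lay lower by 1.21 and the target genes Ltb and Ccl5 higher by 1.02 and 1.48, without passing. A second Ccl5 probe, well above background on 2 of the 4 arrays, differed by 0.395 on slide 1 and 0.159 on slide 2. The adjusted p without each array was 0.119, 0.0916, 0.0709 and 0.0168 for Relb, and 0.281, 0.344, 0.207 and 0.0405 for Spry2.

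Genes of ribosome building and of lipid synthesis lay higher together, by small amounts that single genes rarely passed. Of 33 ribosome biogenesis and MYC target genes tested 0 passed in limma, 24 had an unadjusted p under 0.05 and a positive difference (72.7%, against 10.6% of all genes, with 7.51% of all genes lower), and 32 lay higher on both slides. Their median was 0.74 (0.77 on slide 1 and 0.78 on slide 2), against 0.04 for all genes. Without Cxcl12 it was 0.66, against -0.05 for all genes. Mybbp1a, a nucleolar regulator, differed by 1.56 (SE 0.29, adjusted p = 0.0526), from 1.48 to 3.1 and from 1.93 to 3.42. The spermidine synthase gene Srm differed by 1.88 (adjusted p = 0.0734), the nucleolar chaperone gene Nolc1 by 1.31 (adjusted p = 0.0757), and Myc itself by 0.60 (SE 0.24, adjusted p = 0.241). The median was 1.37 with normexp background correction, which moves that of all genes to 0.15.

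Of 30 genes of cholesterol and fatty acid synthesis 1 rose, 29 lay above 0 (against 53.8% of all genes) and 25 did so on both slides (against 34.4%). Their median was 0.61 with Cxcl12 and 0.52 without it. Scd2, a fatty acid desaturase gene, had 5.87 and 6.73 on slide 1 and 5.71 and 6.64 on slide 2, and rose by 0.90 (SE 0.16, adjusted p = 0.0433). Msmo1 and Idi1, of the sterol and isoprenoid steps, differed by 1.15 and 1.06, with adjusted p of 0.0692 and 0.0713. Fasn, fatty acid synthase, differed by 1.15. The median was 1.16 with normexp background correction, where Scd2 differed by 1.69 and did not pass. It had an adjusted p of 0.0968 to 0.389 when any 1 of the 4 arrays was left out.

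Glucose and energy genes were higher to a lesser degree. Of 29 glycolysis and hypoxia genes 1 rose, 24 lay above 0 (against 53.8% of all genes), and the median was 0.38, against 0.01 without Cxcl12. Slc2a3, a glucose transporter gene, had 3.05 and 4.42 on slide 1 and 3.07 and 4.44 on slide 2, and rose by 1.37 (SE 0.23, adjusted p = 0.0349). A second Slc2a3 probe, well above background on 2 of the 4 arrays, differed by 0.47 and -0.44. The difference of Slc2a3 was 2.01 with normexp and 0.69 with the mean of probes, and neither passed. The enolase gene Eno1 differed by 0.83, the pyruvate dehydrogenase kinase gene Pdk1 by 1.25 and the lactate exporter gene Slc16a3 by 1.16, without passing. Of 28 oxidative phosphorylation genes 0 passed in limma, 26 lay above 0, and the median was 0.32. At an unadjusted limma p under 0.05, 8 of them were higher (28.6%, against 10.6% of all genes) and 0 lower. The 29 cytosolic ribosomal protein genes had a median of 0.14. Slc2a3 had an adjusted p of 0.0833 to 0.28 when any 1 of the 4 arrays was left out, and the glycolysis median was 0.98 with normexp background correction.

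Cell division genes stayed near the level of all genes. Of 30 G1/S and DNA replication genes 0 passed in limma, and the median was 0.04. At an unadjusted limma p under 0.05, 1 was lower (3.33%) and 0 were higher, against 7.51% and 10.6% of all genes. Of 29 G2/M and mitosis genes 0 passed, 1 was lower at that unadjusted p (3.45%) and 0 were higher, and the median was 0.01. The serine synthesis gene Phgdh, of the ATF4 list, differed by 1.07 (SE 0.21, adjusted p = 0.0604), and the list of 20 had a median of 0.36 with 0 passing and 6 at an unadjusted p under 0.05. The 25 interferon-stimulated genes tested had a median of 0.28, with 0 passing and 4 at an unadjusted p under 0.05.

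**Figure D4:**
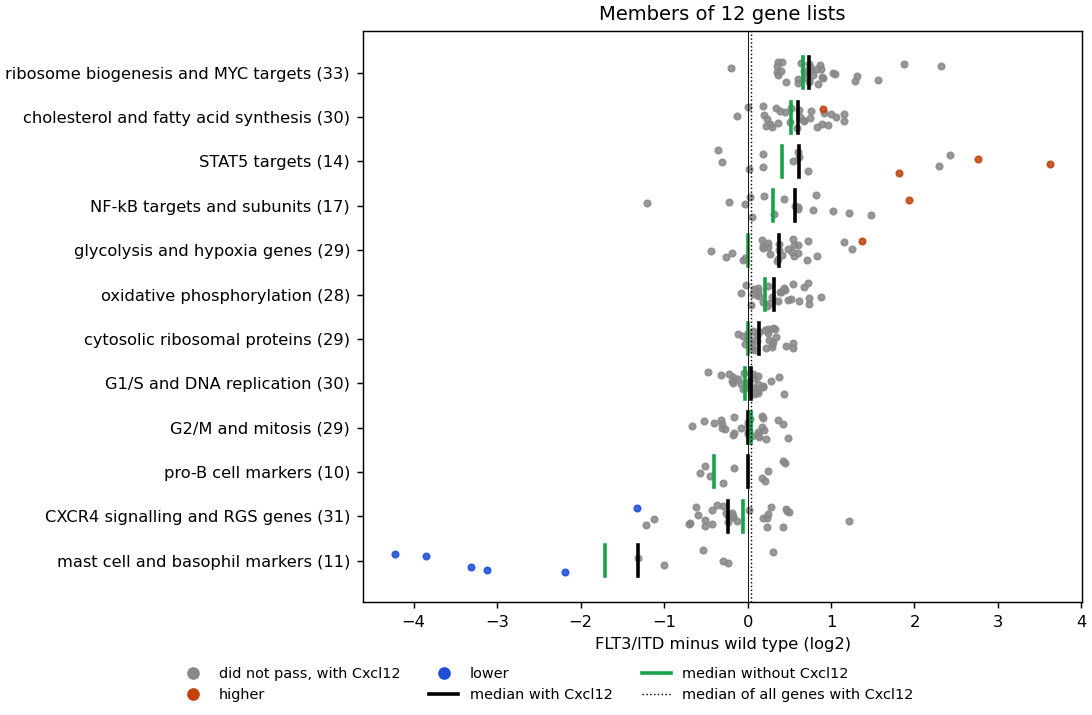
Difference between FLT3/ITD and wild type FLT3 with Cxcl12 (log2, horizontal) for each tested member of 12 gene lists, 1 point a gene, with the number tested in brackets. Black bars are list medians with Cxcl12, green bars without it, and the dotted line is the median of all genes, 0.04. The ribosome biogenesis points lie right of the line almost as a block around 0.74, and the mast cell points spread to the left.

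Nearly all the genes that passed with Cxcl12 differed in the same direction in the cells without it. On those 4 arrays, which share none with the comparison, 115 of the 116 had the same sign (against 73.4% of all genes) and 113 the same sign on both slides (against 46.6%). Both comparisons share 1 estimate of the spread, so passing in both is not independent. The other was an unnamed feature, AK079181, at 3.15 with and -0.24 without Cxcl12. Of the 116, 59 also passed there (50.9%), which is 84.3% of the 70 that passed without Cxcl12 (0.506% of genes). The median size was 2.35 with and 1.96 without Cxcl12. The genes were selected for passing with Cxcl12, so these sizes are not a comparison of the settings. The difference between the settings was tested as an interaction, and 0 of 13845 genes (0.0%) passed in limma, while 237 (1.71%) had an unadjusted p under 0.05. Without the N78 array with Cxcl12, 20 passed in the interaction, and with normexp background correction 6.

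Id1 and Fam162a had the lowest unadjusted interaction p among the genes that passed, and Fam162a, Car12 and Angptl4 were chosen after their values were seen. Without Cxcl12, Id1 had 1.54 in wild type and 3.31 in N51, and -0.25 and 0.38 on slide 2. Its difference was 1.20 without and 3.62 with Cxcl12, which differ by 2.42 (SE 0.41, unadjusted p = 0.000229, adjusted p = 1.0). Fam162a, a hypoxia-responsive mitochondrial protein gene, had 6.37 and 6.42 on slide 1 and 5.11 and 5.44 on slide 2 without Cxcl12. With it, it had 4.78 and 6.11 on slide 1 and 3.68 and 5.38 on slide 2. The wild type arrays with Cxcl12 were thus the low ones, and its difference was 0.19 without and 1.52 with Cxcl12 (interaction 1.32, SE 0.27, unadjusted p = 0.000827). With normexp Fam162a differed with Cxcl12 by 2.29 and did not pass. A second Fam162a probe differed with Cxcl12 by 0.26 on slide 1 and 1.95 on slide 2. The carbonic anhydrase gene Car12, the lipase inhibitor gene Angptl4 and Slc2a3 had 1.1, 0.54 and 0.56 without Cxcl12 and 2.22, 1.39 and 1.37 with it, and Car12 had 1.21 with it under normexp. Among those that did not pass with Cxcl12, Cish had 0.68 without and 2.29 with it, and Ltb 0.02 and 1.02. Mcpt8, by contrast, had -4.59 without and -4.22 with Cxcl12, and Serpina3g was raised in both, at 7.62 and 8.73 as fitted.

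**Figure D5:**
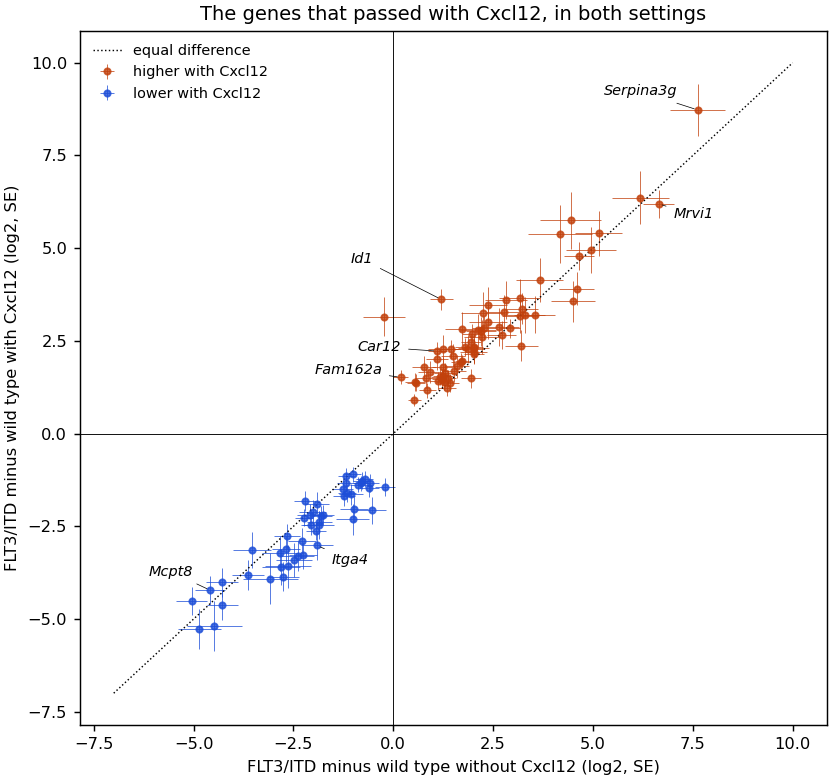
Difference between FLT3/ITD and wild type FLT3 without Cxcl12 (horizontal) and with it (vertical) for the 116 genes that passed with Cxcl12 (log2, bars are SE, n = 2 arrays a side), with the line of equal difference. Most points follow the line, and Id1, Car12 and Fam162a lie above it. Fitted values of genes not well above background in 1 group carry no exact size.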

How the data were processed

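RNA of each sample was hybridised to a 1-colour (Cy3) Agilent 4x44K mouse array, on 2 slides. The intensity values used are the processed signals that, per the file headers, the authors' scanner software gave, Feature Extraction 9.5.1.1 on slide 1 (probe positions in mm7) and 10.7.3.1 on slide 2 (mm9). The authors' normalized tables held the same signals on a linear scale, deposited as intensity values relative to a per-array value, and served as an alternative. From the signals, log2 intensity minus the array's 75th percentile was computed. Control spots and outlier spots were left out, and a probe was kept if, in 1 or more groups, it was well above background on each array. These were 21113 probes, of which the one with the highest mean signal stood for a gene. Names came from accessions (27277 probes), symbols (5538) or synonyms (705) in a RefSeq gene table or from the file alone (953), and 6701 probes had none, which left 1848 unnamed features among the 13845 tested.

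All 8 arrays were fitted in limma 3.58.1 (R 4.3.3) with group and slide as terms and an intensity trend, with 3 residual degrees of freedom. The slide is read from the headers and holds every group, so it is the pairing. Arrays of one slide deviated together (r = 0.73 to 0.878), and with 2 slides both give the same r. A missing value on an array with Cxcl12 affected 20 genes, 0 of them among the 116. The procedure was tested on simulated data.

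Genes could be named if they were among the 20 largest differences in either direction that passed, if they were called members of a list or among the 4 largest other members, or if they belonged to a short list of pathway genes. Not every such gene was named, so the members given that did not pass are not always the largest of their list. Others were named after their values were seen, among them F2r, F2rl2, Sla2, Dok2, Il12rb1, Ebi3, Tnfsf14, Fam162a, Car12, Angptl4, Lipa, Arsb, Fcgr2b, Lat2, the neighbours on the chromosomes and list members given for their function. The members and lists were chosen with earlier results of these data known. Some genes are not reported here. Number of arrays limits the precision. Alternatives were the background correction, scaling, authors' tables, probe filter and summary, slide block, arrays in the fit, trend, and leaving out each array.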

Additional observations from a re-analysis of the deposited data

How the results depend on the processing

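The count of genes that passed with Cxcl12 (116) was 197 with normexp background correction, 208 with median scaling, 195 from the authors' normalized tables, 240 with the 4 arrays with Cxcl12 alone, 21 with no filter on dim probes and 75 with probes well above background on all 4 arrays. With no replicate block (no slide term) it was 0. Quantile normalization gave 92, the mean of probes 122, no trend 82, and a further 2-fold limit 115. Leaving out each array in turn gave 17 to 221. In the interaction the count of 0 became 6 with normexp, and 0 to 20 when single arrays were left out. The share with the same sign without Cxcl12 (99.1%) was 100.0% with the stricter filter and 99.1 to 100.0% without single arrays. The ribosome biogenesis median was 1.37 with normexp, 0.76 with median scaling and from the authors' tables, 0.66 with quantile normalization and 0.75 with the mean of probes, and 0.62 to 0.95 without single arrays. The cholesterol median was 1.16 with normexp, 0.51 with quantile normalization and 0.56 with no filter, and 0.46 to 0.65 without single arrays. The glycolysis median was 0.98 with normexp and 0.25 to 0.66 without single arrays. The mast cell median was -1.05 with no filter and -2.0 to -1.31 without single arrays, and the STAT5 median was 0.28 to 0.90. The sign turned with normexp for Serpina3f (-0.57), Slc30a2 (-0.37), Slc6a12 (-0.02), Slc14a1 (-0.47), Lyz1 (-0.68), Nupr1 (-0.21) and Ccl5 (-0.52), and with quantile normalization for Birc5 (-0.06). All of these except Ccl5 and Birc5 were not well above background in wild type cells with Cxcl12. Without single arrays Birc5 ranged from -0.02 to 0.30, Epx from -4.22 to 0.47 and Mpo from -3.82 to 0.72, the last 2 turning without the wild type array of slide 1. Where no value above shows it, the cause was not tested. Differences against probes not well above background have no exact size, and 2 arrays a side limit every p-value.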
